A study of Mus musculus with 41 samples.

Results

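The 37 genes described here are general markers of neurons: their products build the neuronal cytoskeleton, the synapse and the secretory granule, or bind RNA and DNA in neurons. They were taken from the table by gene symbol, with no measured value in the rule. All 37 were among the 24410 gene symbols of the deposited table, and all 37 passed the filter on low counts that left 15204 genes to test. By the role of the product they comprise 8 microtubule and growth cone genes, 4 neurofilament genes, 6 synaptic vesicle and release genes, 4 secretory granule genes, 4 genes of RNA-binding proteins, 4 of transcription factors, 4 of cell surface and adhesion proteins and 3 others.

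RNA was sequenced from mouse R1-iCas9 embryonic stem cells, in which doxycycline induces Cas9, while they were differentiated into spinal cord neural progenitors and neurons. The Eed, Ezh2, Brd8 and Nr6a1 groups received pooled guides, 5 crRNAs per gene with tracrRNA, against the gene they are named for, and the control group, NT, a non-targeting guide. Every group, NT included, was exposed to doxycycline and then to the same media: N2B27 with bFGF, the GSK3 inhibitor CHIR99021 from day 2, retinoic acid with the Smoothened agonist SAG from day 3, and SAG alone from day 5. Libraries were made at days 7, 9 and 11, with 3 per genotype and day, except 2 for Nr6a1 at each day and 2 for Brd8 at day 9. The labels name no single-cell cloning, so each library may average over cells with different edits. A fall in a neuronal transcript cannot be told apart from fewer neurons or less RNA per neuron. The labels do not say whether replicates were separate cultures, so the p-values measure the spread between these libraries only, which may be technical.

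Neurons leave the cell cycle as proneural factors switch on, and a shared programme of structural and synaptic genes follows. Tubulins, doublecortin and stathmins appear early in that programme, when axons start to grow, while mature microtubule-associated proteins and vesicle proteins accumulate later. Eed and Ezh2 encode subunits of PRC2, which keeps developmental genes silent by methylating histones. Brd8 encodes a bromodomain subunit of the NuA4/TIP60 complex, which acetylates histones, and Nr6a1 encodes a nuclear receptor of early embryos.

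The 41 libraries held 8581282 to 38240227 estimated counts. Levels are given as CPM, the count scaled by library size to a common total, with trimmed-mean normalization, and the 37 genes together made up 0.878 to 2.08% of the scaled counts of a library. Transcripts of the targeted genes were not lower past the test in any group. In Eed libraries Eed averaged 30.6 ± 4.81, 24.5 ± 2.03 and 17.9 ± 1.48 CPM at days 7, 9 and 11 (SD, n = 3 each), against 25.4 ± 0.825, 22.5 ± 3.38 and 14.5 ± 0.882 CPM in NT. Ezh2 in Ezh2 libraries at day 11 had a log2 change of 0.37 ± 0.0919 SE at adjusted p = 0.00736, a rise. Brd8 fell short of the threshold at each day (adjusted p = 0.221, 0.752 and 0.0940), and so did Nr6a1 (adjusted p = 0.121, 0.710 and 0.603). Nr6a1 averaged 123 ± 12.8, 60.6 ± 6.65 and 29.1 ± 1.06 CPM in Nr6a1 libraries at days 7, 9 and 11 (SD, n = 2 each). NT libraries had 175 ± 5.81, 72.2 ± 4.20 and 35.4 ± 8.32 CPM of it (SD, n = 3 each). The Nr6a1 libraries were lower without overlap at days 7 and 9, and overlapped NT at day 11. Small edits need not lower a transcript, so these levels do not check the labels. Markers of the labelled cell type were present as a sum in all libraries: 16 neural progenitor genes, among them Sox2, Pax6, Nes and Olig2, summed to 3615 to 4828 CPM. The sum does not give the level of any single gene. Eed replicate 3 and NT replicate 3, both at day 11, stood apart, with best correlations to their own group of 0.945 and 0.939, below 0.95. Results at day 11 are therefore also given without them.

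Levels of the neuronal genes in NT were compared first, per kilobase of exon (GENCODE M21), since counts grow with transcript length. Tubb3, the neuronal beta-tubulin, was the highest of the 37 at every day, with 480.3 CPM per kb at day 7, 644 at day 9 and 473 at day 11. Map1b, which binds growing microtubules, was next at every day, with 345, 407 and 366 CPM per kb. Thy1, a surface glycoprotein of mature neurons, was the lowest at 0.381, 0.183 and 0.207 CPM per kb, and it did not exceed 3.61 CPM in any library. Thy1 was therefore measured near the floor, and it passed no test. Myt1l, Nefh, Chga, Rbfox3 and Nefm were also low for the list at day 7, between 1.69 and 4.66 CPM per kb, whereas Nefl, Ncam1, Gap43, Ina, Cntn2 and Dcx lay between 97.9 and 188 CPM per kb.

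Most of the list changed over 4 days of further differentiation of NT cells. From edgeR's quasi-likelihood test with Benjamini-Hochberg adjustment, 20 of the 37 genes were higher and 5 lower at day 11 than at day 7, where 21.9% of all genes tested were higher and 23.3% lower, and 12 did not pass. The median log2 fold change over the 37 was 0.46, and in every comparison reported here the median over all genes tested lay between -0.012 and 0.052. All 6 synaptic vesicle genes rose, with 0.69 for Snap25 at the low end and 1.46 for Syt4 at the high end on the log2 scale. No microtubule or growth cone gene fell, and 4 of the 8 rose. The ribosomal RNA gene Rn45s took 14.1 to 14.7% of the counts of NT libraries at day 7 and 5.18 to 6.79% at day 11. Its part in these changes was not tested.

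The 4 largest rises were in Myt1l, Rtn1, Mapt and Map2. Myt1l, a zinc finger repressor of non-neuronal genes, was at 22.8, 25.5 and 22.8 CPM at day 7, 52.3, 46.9 and 54.1 CPM at day 9 and 116, 124 and 108 CPM at day 11 (log2 change 2.30 ± 0.149 SE at adjusted p = 1.44e-15). Rtn1, a neuronal reticulon of the endoplasmic reticulum, was at 120.2, 112 and 118 CPM at day 7, 314, 277 and 321 CPM at day 9 and 426, 423 and 441 CPM at day 11 (log2 change 1.88 ± 0.121 SE at adjusted p = 1.18e-15). The 3 days did not overlap for either gene, and the level was higher at each later day. Mapt, which encodes the axonal protein tau, had 131, 130.4 and 118 CPM at day 7, 294, 269 and 360.0 CPM at day 9 and 454, 437 and 377 CPM at day 11 (log2 change 1.74 ± 0.135 SE at adjusted p = 1.30e-13). Map2, its dendritic counterpart, had 369, 417 and 372 CPM at day 7, 945, 854 and 900.4 CPM at day 9 and 1298, 1130.1 and 1204 CPM at day 11 (log2 change 1.65 ± 0.108 SE at adjusted p = 1.55e-15). These too were separate between days, with no library of a later day below one of an earlier day.

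The 5 genes that fell in NT were Cntn2, Nefm, Nhlh1, Nhlh2 and Nefl. Cntn2, also known as TAG-1 and carried by the axons of newly formed neurons, was at 958, 958 and 1004 CPM at day 7, 740.3, 772 and 814 CPM at day 9 and 209, 209 and 213 CPM at day 11 (log2 change -2.21 ± 0.160 SE at adjusted p = 2.44e-14). Nhlh1 and Nhlh2 encode basic helix-loop-helix factors that are expressed transiently in young neurons. Nhlh1 was at 163, 153 and 159.7 CPM at day 7, 104, 111 and 94.4 CPM at day 9 and 49.4, 48.7 and 37.9 CPM at day 11 (log2 change -1.80 ± 0.147 SE at adjusted p = 5.35e-13). Nhlh2 was at 146, 129 and 145 CPM at day 7, 107, 108 and 104 CPM at day 9 and 58.9, 41.6 and 41.4 CPM at day 11 (log2 change -1.56 ± 0.156 SE at adjusted p = 9.30e-11). The 3 genes were lower in every day 11 library than in any library of the earlier days. Nefm, the medium neurofilament subunit, was uneven at day 9, with 20.4, 27.1 and 33.4 CPM at day 7, 21.6, 56.9 and 17.6 CPM at day 9 and 8.91, 7.79 and 4.63 CPM at day 11 (log2 change -1.90 ± 0.435 SE at adjusted p = 4.04e-04). Nefl, the light subunit, shares 1108 exonic bases with Nefm on the opposite strand, and its log2 change was -0.65 ± 0.166 SE at adjusted p = 0.00136.

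Most of the list was lower in Eed and Brd8 libraries at day 7, and in Brd8 libraries most of it was also lower at day 9. At day 11 fewer genes were lower in both. Nhlh1, Nhlh2 and Cntn2 were then higher in both, and Myt1 in Brd8, which is 3 of 37 genes in Eed and 4 of 37 in Brd8, against 13.3% and 10.3% of all genes tested, shares near or below the background. In Ezh2 libraries 2 genes passed the test, Nhlh1 and Nhlh2, both higher at day 11. Each knockout is compared with the NT libraries of its day, so the 4 comparisons of a day share those libraries.

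**Figure D1:**
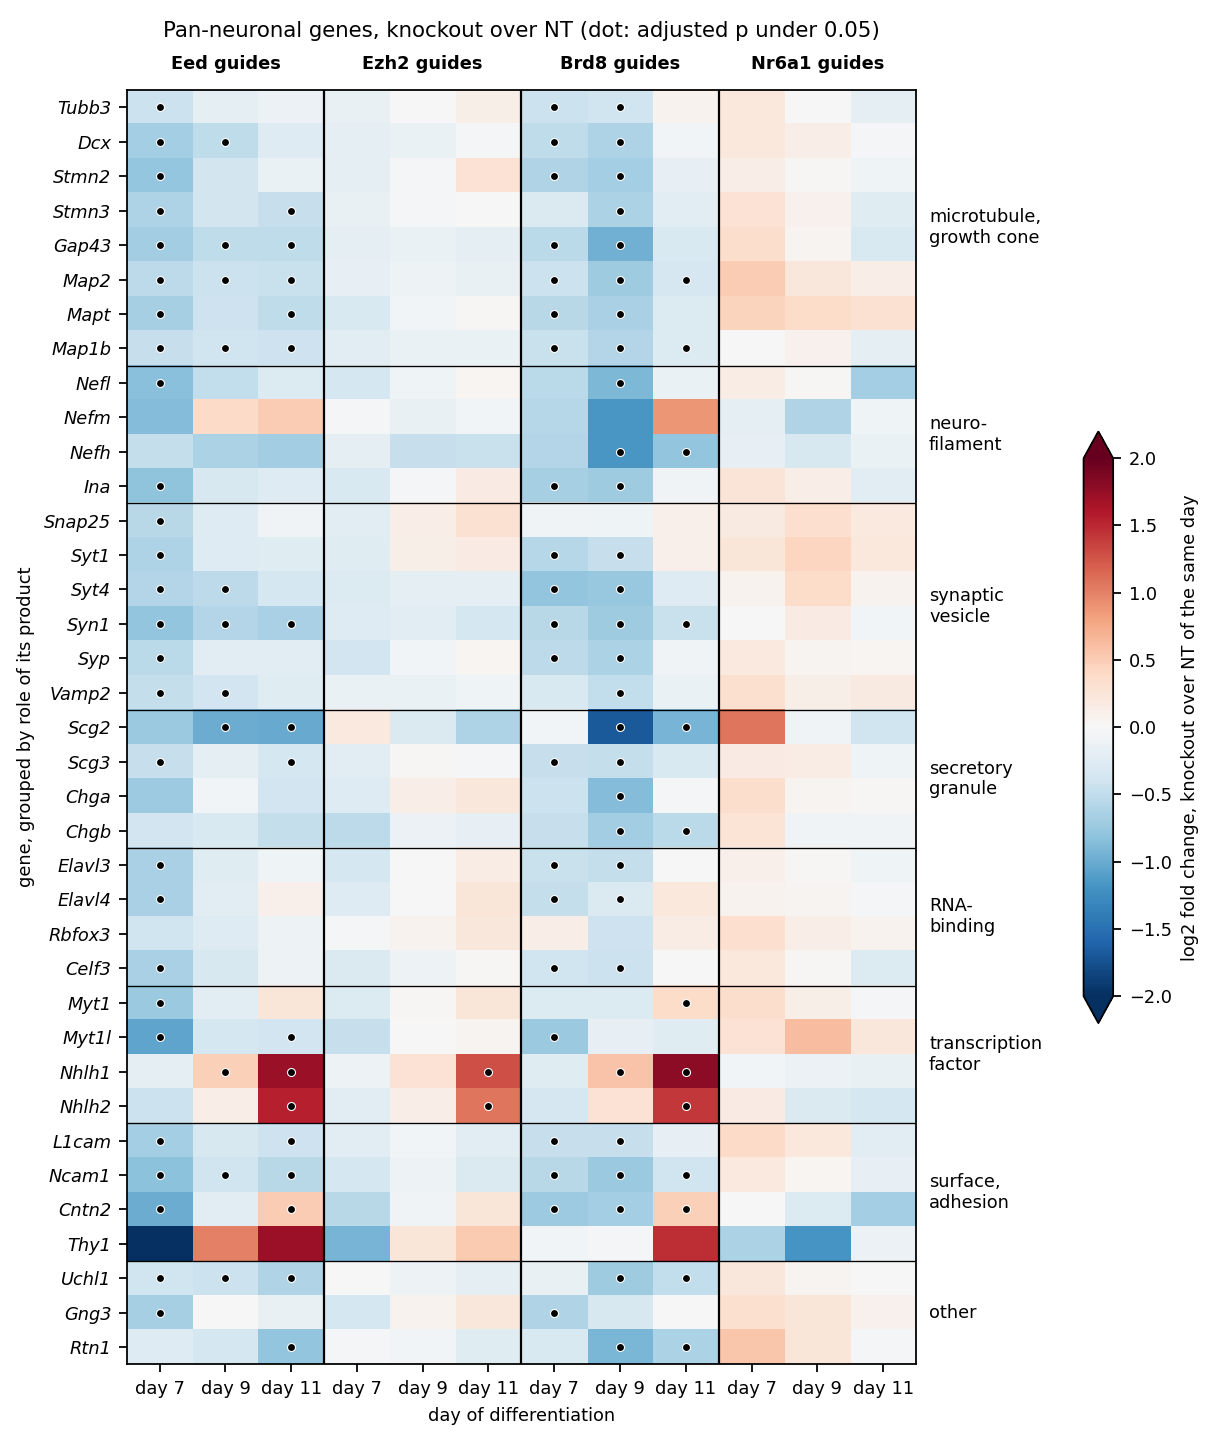
Log2 fold change of each of the 37 genes (rows, grouped by the role of the product) in Eed, Ezh2, Brd8 and Nr6a1 libraries over NT libraries of the same day (columns), from the edgeR model. The colour runs from blue (lower in the knockout) to red (higher), with values past 2 in either direction drawn in the end colours, and a dot marks an adjusted p under 0.05: 27 genes are lower in Eed at day 7 and 28 in Brd8 at day 9, while Nhlh1 and Nhlh2 are red at day 11 in Eed, Ezh2 and Brd8.

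In Eed libraries at day 7, 27 of the 37 genes were lower and 0 higher, where 5.76% of all genes tested were lower and 2.9% higher, and the median log2 fold change of the 37 was -0.64. At day 9 in Eed libraries 10 were lower and 1 higher (2.16% and 2.99% of all genes tested), with a median of -0.32. Single libraries decided that count. Leaving out Eed replicates 1, 2 and 3 in turn gave 20, 2 and 0 calls, and leaving out NT replicates 1 and 3 gave 3 and 1. At day 11 in Eed libraries 13 were lower and 3 higher, with a median of -0.26. Over all genes tested 10.6% were lower and 13.3% higher, so the share of rises was not above the background. Without Eed replicate 3 and NT replicate 3 at day 11, 11 of the 37 passed.

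In Brd8 libraries at day 7, 21 of the 37 genes were lower and 0 higher, where 3.45% of all genes tested were lower and 1.3% higher, and the median log2 fold change of the 37 was -0.46. Without Brd8 replicate 1 the count was 11. At day 9 in Brd8 libraries 28 were lower and 1 higher (7.81% and 7.72% of all genes tested), with a median of -0.63. Of the 2 Brd8 libraries at day 9, replicate 2 was the lower, and 7 genes passed without it: Gap43, Rtn1, Ncam1, Map1b, Map2, Dcx and Uchl1. At day 11 in Brd8 libraries 9 were lower and 4 higher (7.48% and 10.3% of all genes tested), with a median of -0.13, and the share of rises was near the background. The day 11 count was 8 without Brd8 replicate 1, 8 without NT replicate 1, 7 without NT replicate 3, and 7 without the 2 libraries that stood apart.

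In Ezh2 libraries 0 of the 37 genes passed at day 7 in edgeR, where 0.0658% of all genes tested were lower and 0.0855% higher. At an unadjusted p under 0.05 there were 14 lower and 0 higher. DESeq2 called 1 and edgeR without Ezh2 replicate 3 called 1, while edgeR called 10, all lower, in a fit of only the groups compared and 7, all lower, with no low-count filter. At day 9 in Ezh2 libraries 0 passed in edgeR and 0 in DESeq2, 1 was higher and 0 lower at an unadjusted p under 0.05, and 0% of all genes tested passed in either direction. At day 11 in Ezh2 libraries 2 genes were higher and 0 lower, where 5.22% of all genes tested were higher and 2.7% lower, a share near the background. With no low-count filter 3 were higher and 4 lower at day 11, and in a fit of only the groups compared 2 and 4. The median log2 fold change of the 37 in Ezh2 libraries was -0.22 at day 7, -0.05 at day 9 and 0.02 at day 11.

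In Nr6a1 libraries 0 of the 37 genes passed at any day in the main edgeR fit. The background was 0.145% higher and 0% lower at day 7, 0.138% and 0.0132% at day 9, and 0.0526% and 0.0263% at day 11. At an unadjusted p under 0.05 there were 10 higher and 0 lower at day 7, 5 higher and 0 lower at day 9, and 1 higher and 6 lower at day 11. DESeq2 called 2, 0 and 0, the 2 being higher. With no low-count filter edgeR called 7 at day 7, all higher, 3 at day 9, all higher, and 2 at day 11, both lower. At day 7 it called 5 in a fit of only the groups compared and 2 with a replicate block, all higher. Leaving out Nr6a1 replicate 3 gave 2 calls at day 7, 1 at day 9 and 2 at day 11. The median log2 fold change of the 37 in Nr6a1 libraries was 0.21 at day 7, 0.06 at day 9 and -0.08 at day 11. At day 7 the ribosomal RNA gene Rn45s took 6.71 to 10.4% of the counts of Nr6a1 libraries, against 14.1 to 14.7% in NT, and its part in the result was not tested.

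Eed and Brd8 libraries overlapped in how far below NT the list lay. At day 7 the median distance of the 37 genes from the NT mean was -0.69, -0.70 and -0.46 on the log2 scale in the 3 Eed libraries and -0.52, -0.49 and -0.39 in the 3 Brd8 libraries. It was -0.15, -0.33 and -0.23 in the Ezh2 libraries and 0.27 and 0.14 in the Nr6a1 libraries, and the NT libraries themselves lay between -0.04 and 0.04. Eed libraries at day 9 were uneven, at -0.08, -0.38 and -0.52, and so were Brd8 libraries at day 11, at -0.31, 0.01 and -0.14.

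**Figure D2:**
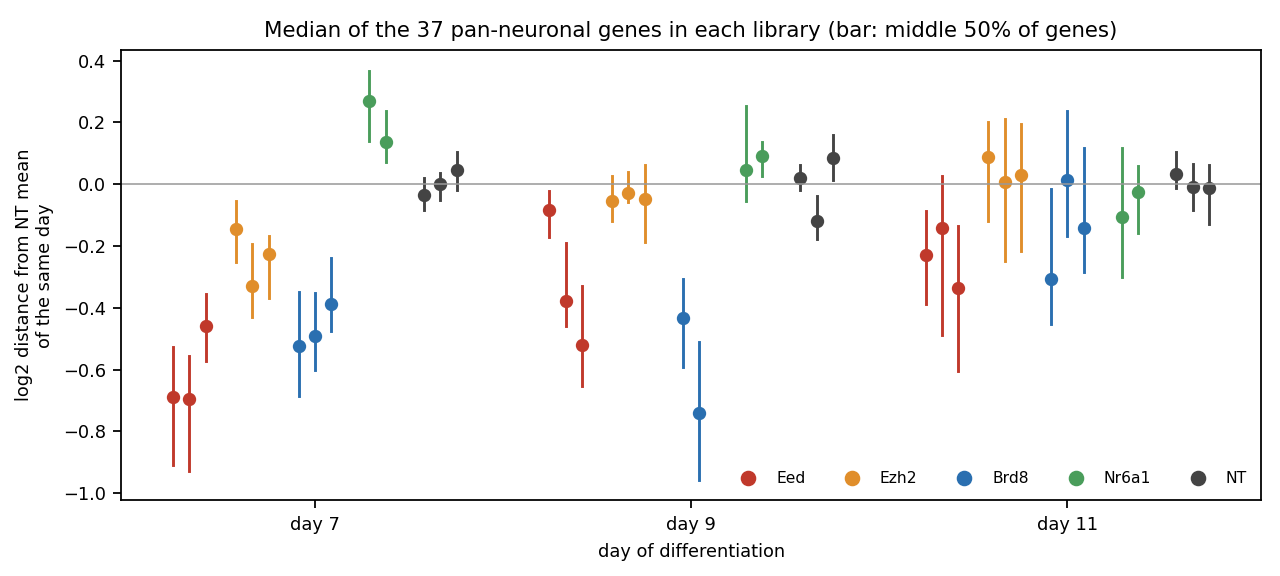
Median log2 distance of the 37 genes from the NT mean of the same day, for every library (points), at days 7, 9 and 11. Bars span the middle 50% of the 37 genes, and colours mark Eed, Ezh2, Brd8, Nr6a1 and NT. At day 7 all 3 Eed and all 3 Brd8 libraries sit at or below -0.39, against -0.04 to 0.04 in NT.

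Counts by role are read against the shares of all genes tested that were lower at days 7, 9 and 11, which were 5.76, 2.16 and 10.6% in Eed and 3.45, 7.81 and 7.48% in Brd8. A single call in a group of 3 to 8 genes is not read as a result about the group. Of the 8 microtubule and growth cone genes, all 8 were lower in Eed libraries at day 7, 4 at day 9 and 5 at day 11, and 7, 8 and 2 were lower in Brd8 libraries at the 3 days. None was higher in any knockout. Dcx, a microtubule-binding protein of migrating neurons, had 1519, 1209 and 1186 CPM in Eed libraries at day 9, against 1829, 1666 and 2089 CPM in NT libraries. The Eed values were all lower, by 1.43-fold (log2 change -0.51 ± 0.102 SE at adjusted p = 0.00242), although the adjusted p was 0.0519 without Eed replicate 3. At day 7 the fold change of Dcx was -0.68 ± 0.102 SE in Eed (adjusted p = 3.32e-05) and -0.50 ± 0.102 SE in Brd8 (adjusted p = 0.00214).

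Map1b was among the clearest. At day 7 it had 3827, 3854 and 4313 CPM in Brd8 libraries, against 5343, 5601 and 5472 CPM in NT libraries (log2 change -0.45 ± 0.0856 SE at adjusted p = 0.00125). At day 9 it had 4622 and 4015 CPM in Brd8 libraries and 6469, 5877 and 7014 CPM in NT libraries (log2 change -0.58 ± 0.0970 SE at adjusted p = 5.68e-05). In both comparisons every Brd8 library was below every NT library. In Eed libraries Map1b had 5524, 4831 and 4274 CPM at day 9, against the same NT values, also without overlap (log2 change -0.40 ± 0.0855 SE at adjusted p = 0.00423). This call was lost without Eed replicate 3 or without NT replicate 3, with an adjusted p of up to 0.110. Map1b was still lower at day 11 in Eed (-0.41 ± 0.0856 SE, adjusted p = 3.57e-04).

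Gap43, a growth cone protein of extending axons, had 284 and 203 CPM in Brd8 libraries at day 9, against 492, 431 and 492 CPM in NT libraries. Both Brd8 values were below all 3 NT values, and the fall was 1.94-fold (log2 change -0.96 ± 0.132 SE at adjusted p = 4.46e-06). In Eed libraries at day 9 Gap43 had 416, 316 and 260.4 CPM (log2 change -0.51 ± 0.115 SE at adjusted p = 0.00681, up to 0.15 over the alternatives, among them leaving out Eed replicate 2, Eed replicate 3 or NT replicate 3). The Eed values did not overlap those of NT. Tubb3 had 740.0, 569 and 685 CPM in Brd8 libraries at day 7, against 911, 899 and 881 CPM in NT libraries, all lower in Brd8 (log2 change -0.43 ± 0.0837 SE at adjusted p = 0.00153). At day 11 Tubb3 did not differ past the test, at 816 ± 27.8 CPM in Eed, 922 ± 88.6 CPM in Brd8 and 883 ± 41.3 CPM in NT (SD, n = 3 each).

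Map2 and Mapt, which rise with time in NT, were lower in Eed libraries at the first and the last day. Map2 had 912, 794 and 957 CPM in Eed libraries at day 11, against 1298, 1130.1 and 1204 CPM in NT libraries (log2 change -0.45 ± 0.105 SE at adjusted p = 0.00137). Mapt had 326, 319 and 250.2 CPM in Eed libraries at day 11, against 454, 437 and 377 CPM in NT libraries (log2 change -0.50 ± 0.130 SE at adjusted p = 0.00372). Both were lower in each of the 3 Eed libraries than in any NT library. In Brd8 libraries at day 11 Map2 was lower (log2 change -0.33 ± 0.105 SE at adjusted p = 0.0231) and Mapt was at -0.27 ± 0.130 SE (adjusted p = 0.158). The Brd8 call on Map2 was lost without Brd8 replicate 1 or 2, or without NT replicate 1 or 3, with an adjusted p of up to 0.109. Stmn2 and Stmn3, stathmins that regulate microtubules in neurites, were lower in Eed at day 7 (-0.77 and -0.62, Stmn3 not without Eed replicate 2 or NT replicate 3), and Stmn3 also at day 11 (log2 change -0.46 ± 0.155 SE at adjusted p = 0.0264, lost without Eed replicate 3 or NT replicate 2).

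Of the 4 neurofilament genes, 2 were lower in Eed libraries at day 7 (Nefl and Ina), 1 in Brd8 libraries at day 7 (Ina), 3 in Brd8 libraries at day 9 and 1 at day 11. Ina, alpha-internexin, which forms filaments with the neurofilament subunits early in development, had 237, 236 and 301 CPM in Eed libraries and 278, 257 and 316 CPM in Brd8 libraries at day 7, against 458, 416 and 474 CPM in NT libraries. All Eed and Brd8 values were below those of NT (-0.80 ± 0.142 SE, adjusted p = 2.33e-04 in Eed, and -0.66 ± 0.141 SE, adjusted p = 0.00337 in Brd8). Nefl had 319, 295 and 454 CPM in Eed libraries at day 7, against 610.1, 628 and 665 CPM in NT libraries, again without overlap (log2 change -0.83 ± 0.166 SE at adjusted p = 9.38e-04). Nefh, the heavy subunit, was between 4.57 and 16.8 CPM in the libraries of Eed, Ezh2, Brd8, Nr6a1 and NT, and was lower in Brd8 at day 9 (log2 change -1.16 ± 0.305 SE at adjusted p = 0.00702, lost without Brd8 replicate 2) and at day 11 (log2 change -0.79 ± 0.270 SE at adjusted p = 0.0370, lost without Brd8 replicate 1 or 2 or NT replicate 1 or 2). Nefm passed in no knockout comparison, and at day 11 its fold changes were 0.50 ± 0.441 SE in Eed and 0.88 ± 0.440 SE in Brd8.

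Genes of synaptic vesicles and release were all lower in Eed libraries at day 7, 6 of 6, with 4 of 6 lower in Brd8. At day 9, 3 were lower in Eed and 5 in Brd8, and at day 11 1 in each, Syn1, against 10.6% of all genes tested in Eed and 7.48% in Brd8. Syn1, which tethers vesicles to actin, had 109.6, 101 and 97.8 CPM in Eed libraries at day 9, against 161, 147 and 155 CPM in NT libraries (log2 change -0.58 ± 0.139 SE at adjusted p = 0.0110, up to 0.113 on leaving out replicate 2 or 3 of Eed or replicate 1 or 3 of NT). At day 11 it had 115, 123 and 130.2 CPM in Eed libraries, 124, 149 and 153 CPM in Brd8 libraries and 180.4, 187 and 210.0 CPM in NT libraries. Syn1 was lower without overlap in both knockouts (-0.65 ± 0.139 SE, adjusted p = 4.96e-04 in Eed, and -0.44 ± 0.139 SE, adjusted p = 0.0234 in Brd8). The day 11 call in Brd8 was lost without Brd8 replicate 1 or without NT replicate 3 (adjusted p up to 0.137).

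The calcium sensors Syt1 and Syt4 and the vesicle proteins Vamp2 and Syp gave values of the same kind. Syt4 had 25.6, 30.7 and 26.4 CPM in Brd8 libraries at day 7, against 39.0, 44.6 and 59.6 CPM in NT libraries (log2 change -0.79 ± 0.154 SE at adjusted p = 0.00167). Vamp2, a SNARE protein of the vesicle membrane, had 83.4, 80.1 and 84.0 CPM in Eed libraries at day 7, against 112, 119.8 and 113 CPM in NT libraries (log2 change -0.48 ± 0.114 SE at adjusted p = 0.00527). Neither pair of groups overlapped. Snap25, its SNARE partner on the plasma membrane, was lower in Eed at day 7 (log2 change -0.56 ± 0.121 SE at adjusted p = 0.00215), while in Brd8 it was at -0.06 ± 0.118 SE at day 7 and -0.09 ± 0.129 SE at day 9 (adjusted p = 0.838 and 0.699). Syp was lower in Eed at day 7 (-0.55), and in Brd8 at day 7 (-0.53, lost without Brd8 replicate 1 or NT replicate 3) and day 9 (-0.63). The day 9 calls of vesicle genes in Brd8 were all lost without Brd8 replicate 2.

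Secretory granule genes were lower in Brd8 at day 9, 4 of 4, and none of these calls held without Brd8 replicate 2. In Eed 1, 1 and 2 were lower at days 7, 9 and 11, and in Brd8 1 at day 7 and 2 at day 11. Scg2, a granin that is cleaved to neuropeptides, had 19.6 and 9.60 CPM in Brd8 libraries at day 9, against 45.3, 32.2 and 61.0 CPM in NT libraries (log2 change -1.68 ± 0.342 SE at adjusted p = 5.85e-04). At day 11 it had 21.1, 16.6 and 14.8 CPM in Eed libraries, 20.9, 20.2 and 15.3 CPM in Brd8 libraries and 35.4, 33.7 and 38.1 CPM in NT libraries. All knockout values were below those of NT at both days (-1.02 ± 0.293 SE, adjusted p = 0.00918 in Eed, and -0.92 ± 0.293 SE, adjusted p = 0.0234 in Brd8). Without the 2 libraries that stood apart, neither day 11 call was kept (adjusted p up to 0.103 in Eed and 0.106 in Brd8), and the Brd8 call was also lost without Brd8 replicate 3 or without NT replicate 3. Scg3 was lower at day 7 in Eed (-0.47) and Brd8 (-0.47), while Chga, at 3.82 to 21.3 CPM in all libraries, passed only in Brd8 at day 9. Scg3 passed in Eed and Brd8 at 2 days each, and each of these 4 calls was lost on leaving out at least 1 library (for day 7 in Eed, Eed replicate 2 or NT replicate 3).

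Of the 4 genes of RNA-binding proteins, 3 were lower at day 7 in Eed, 3 at day 7 in Brd8 and 3 at day 9 in Brd8 (lost without Brd8 replicate 2), and 0 passed at day 9 or day 11 in Eed or at day 11 in Brd8. Elavl3 and Elavl4, the neuronal HuC and HuD proteins that stabilise transcripts, were the clearest. Elavl3 had 208, 205 and 245 CPM in Eed libraries at day 7, against 343, 321 and 370.4 CPM in NT libraries (log2 change -0.66 ± 0.0888 SE at adjusted p = 1.40e-05). Elavl4 had 215, 193 and 227 CPM in Eed libraries and 215, 219 and 281 CPM in Brd8 libraries at day 7, against 314, 315 and 362 CPM in NT libraries. Each knockout library was below each NT library (-0.64 ± 0.0893 SE, adjusted p = 1.54e-05 in Eed, and -0.47 ± 0.0889 SE, adjusted p = 0.00125 in Brd8). At day 11 Elavl4 had 306, 301 and 314 CPM in Eed libraries, 292, 332 and 371 CPM in Brd8 libraries and 294, 264 and 302 CPM in NT libraries, and neither fold change passed (0.10 ± 0.0885 and 0.21 ± 0.0886 SE, adjusted p = 0.462 and 0.100). Rbfox3, the splicing factor detected by the NeuN antibody, passed in no knockout comparison. Celf3 was lower at day 7 in Eed (log2 change -0.64 ± 0.109 SE at adjusted p = 1.65e-04) and in Brd8 (log2 change -0.40 ± 0.108 SE at adjusted p = 0.0212), the Brd8 call being lost without Brd8 replicate 1 or 2 or NT replicate 1 or 3.

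Of the 4 cell surface and adhesion genes, 3 were lower at day 7 in Eed and 3 in Brd8. Ncam1, the neural cell adhesion molecule, had the smallest adjusted p of the list in Eed libraries at day 7, with 761, 684 and 979.9 CPM there and 916, 926 and 1092 CPM in Brd8 libraries, against 1404, 1404 and 1483 CPM in NT libraries. The fall was 1.77-fold in Eed (log2 change -0.82 ± 0.108 SE at adjusted p = 8.17e-06) and 1.46-fold in Brd8 (log2 change -0.55 ± 0.107 SE at adjusted p = 0.00166), with no overlap. At day 9 Ncam1 had 1310.3 and 945 CPM in Brd8 libraries and 1866, 1737 and 2046 CPM in NT libraries (log2 change -0.74 ± 0.122 SE at adjusted p = 4.64e-05). At day 11 it had 1265, 1248 and 1161 CPM in Eed libraries, against 1789, 1782 and 1824 CPM in NT libraries, which hardly varied (log2 change -0.55 ± 0.107 SE at adjusted p = 1.45e-04). All of these Ncam1 calls were kept under every alternative run. L1cam, an adhesion protein of axons, was lower in Eed at day 7 (-0.68) and day 11 (-0.42, lost without the 2 libraries that stood apart).

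Cntn2 went in opposite directions at the first and the last day. At day 7 it had 474, 404 and 587 CPM in Eed libraries and 540.3, 529.7 and 700.1 CPM in Brd8 libraries, against 958, 958 and 1004 CPM in NT libraries. Cntn2 was lower without overlap in both (-0.995 ± 0.154 SE, adjusted p = 4.73e-05 in Eed, and -0.72 ± 0.153 SE, adjusted p = 0.00328 in Brd8). At day 11 it had 286, 303 and 308 CPM in Eed libraries and 269, 327 and 283 CPM in Brd8 libraries, against 209, 209 and 213 CPM in NT libraries. Here every Eed and Brd8 library was above every NT library (0.51 ± 0.155 SE, adjusted p = 0.0142 in Eed, and 0.48 ± 0.155 SE, adjusted p = 0.0265 in Brd8). The day 11 calls were lost without the 2 libraries that stood apart (adjusted p up to 0.0904 in Eed and 0.123 in Brd8), and in Brd8 also without Brd8 replicate 2 or any 1 of the 3 NT libraries. In Nr6a1 libraries at day 11 Cntn2 had 93.6 and 168 CPM, below all 3 NT values, with -0.69 ± 0.177 SE (adjusted p = 0.118), which did not pass.

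Among the genes that passed, the largest rises at day 11 were in 2 transcription factors. Thy1, near the floor, had fitted log2 changes of 1.71 in Eed and 1.47 in Brd8 that did not pass. Nhlh1 had 129.6, 156 and 165 CPM in Eed libraries, 93.7, 139 and 100.4 CPM in Ezh2 libraries and 176, 144 and 150.0 CPM in Brd8 libraries at day 11, against 49.4, 48.7 and 37.9 CPM in NT libraries. No knockout library overlapped NT, and the rise was 3.30-fold in Eed (log2 change 1.72 ± 0.147 SE at adjusted p = 7.87e-11), 2.45-fold in Ezh2 (log2 change 1.29 ± 0.146 SE at adjusted p = 2.81e-07) and 3.45-fold in Brd8 (log2 change 1.79 ± 0.147 SE at adjusted p = 9.40e-11). Nhlh2 had 123, 134 and 165 CPM in Eed libraries, 106, 107 and 85.7 CPM in Ezh2 libraries and 125, 121 and 135 CPM in Brd8 libraries, against 58.9, 41.6 and 41.4 CPM in NT libraries. Again no library overlapped NT, and the rise was 2.95-fold in Eed (log2 change 1.56 ± 0.156 SE at adjusted p = 1.69e-09), 2.09-fold in Ezh2 (log2 change 1.06 ± 0.155 SE at adjusted p = 1.40e-05) and 2.67-fold in Brd8 (log2 change 1.42 ± 0.156 SE at adjusted p = 1.83e-08). These 6 calls were kept under every alternative run. The day 11 values of Nhlh1 in Eed and Brd8 libraries overlapped those of the same knockouts at day 7, when it had 154, 126 and 140.1 CPM in Eed libraries, 133, 122 and 148 CPM in Brd8 libraries and 163, 153 and 159.7 CPM in NT libraries. In Nr6a1 libraries at day 11 Nhlh1 had 32.1 and 50.1 CPM and Nhlh2 29.7 and 44.3 CPM, both with ranges that overlap NT. Nhlh1 was also the 1 gene of the list called higher at day 9 in Eed and in Brd8 (log2 change 0.47 and 0.56). Its day 9 values were 121, 144 and 165 CPM in Eed and 134 and 171 CPM in Brd8. NT libraries had 104, 111 and 94.4 CPM, without overlap. The day 9 call in Eed was lost without Eed replicate 2 or 3 or NT replicate 1 or 3. That in Brd8 was lost without NT replicate 3, among others.

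Myt1 and Myt1l are related zinc finger factors. Myt1 had 116, 91.3 and 123 CPM in Eed libraries at day 7, against 176, 195 and 181 CPM in NT libraries, a 1.67-fold fall without overlap (log2 change -0.74 ± 0.0995 SE at adjusted p = 1.33e-05). At day 11 it had 272, 269 and 267 CPM in Eed libraries and 276, 292 and 316 CPM in Brd8 libraries, against 256, 219 and 207 CPM in NT libraries. The rise in Brd8 passed (log2 change 0.37 ± 0.0971 SE at adjusted p = 0.00517), though not without NT replicate 3, and the Eed value did not (log2 change 0.24 ± 0.0970 SE at adjusted p = 0.0655). Myt1l had 10.4, 12.1 and 11.7 CPM in Eed libraries and 10.9, 15.3 and 16.2 CPM in Brd8 libraries at day 7, against 22.8, 25.5 and 22.8 CPM in NT libraries, all lower (-1.06 ± 0.165 SE, adjusted p = 4.93e-05 in Eed, and -0.74 ± 0.159 SE, adjusted p = 0.00349 in Brd8). The Brd8 call on Myt1l was lost without Brd8 replicate 1. At day 11 Myt1l was still lower in Eed (log2 change -0.38 ± 0.138 SE at adjusted p = 0.0391, lost without Eed replicate 2 or 3 or NT replicate 1 or 2).

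**Figure D3:**
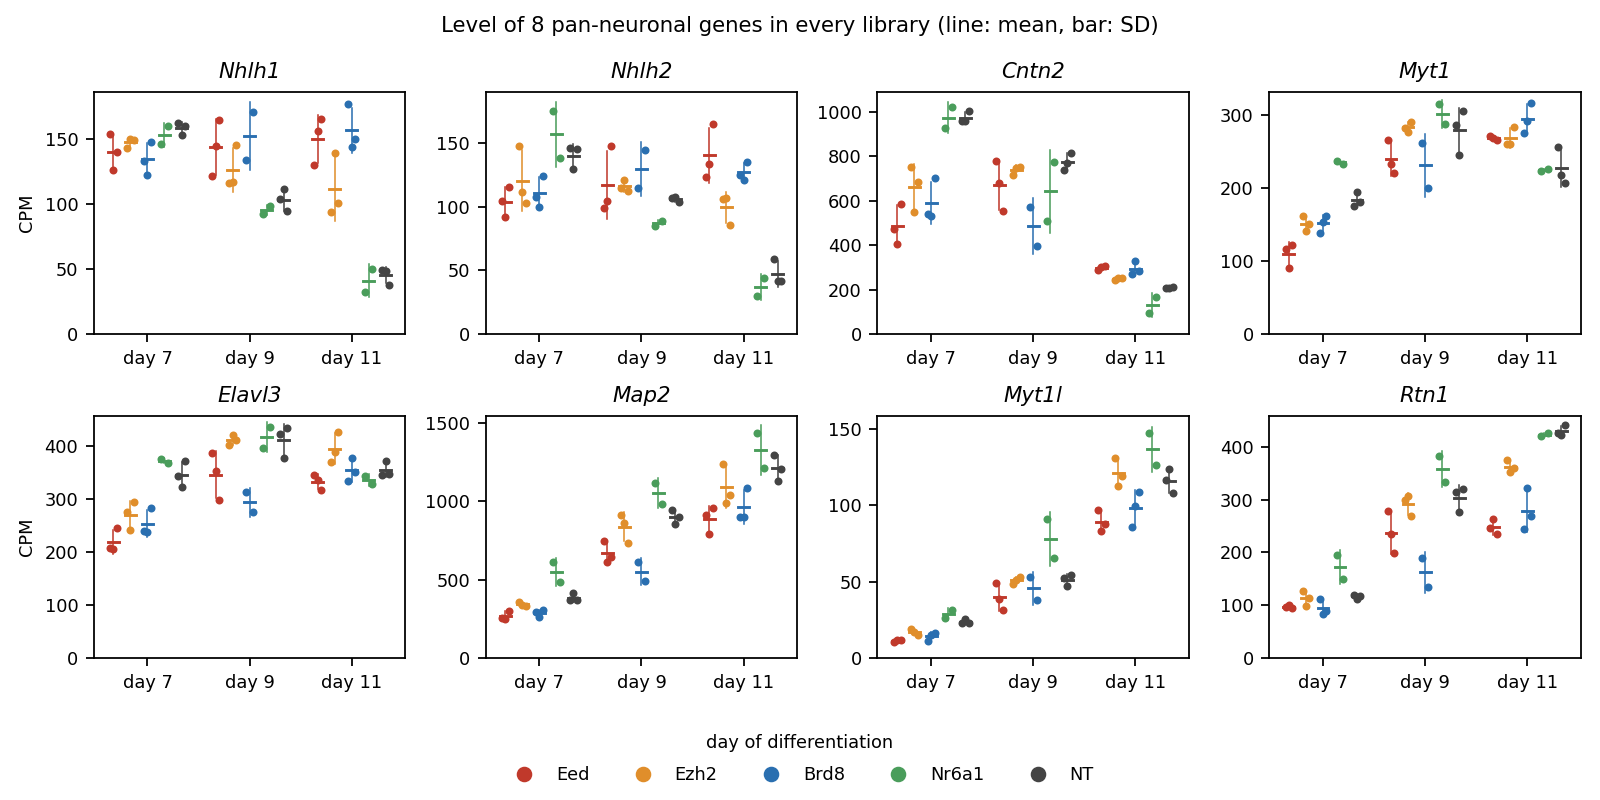
Level in CPM (linear axes from 0) of Nhlh1, Nhlh2, Cntn2, Myt1, Elavl3, Map2, Myt1l and Rtn1 in every library at days 7, 9 and 11, with points for libraries, lines for the mean and bars for the SD. Nhlh1 at day 11 is at 129.6 to 176 CPM in Eed and Brd8 libraries, against 37.9 to 49.4 CPM in NT, while Rtn1 at day 11 is at 234 to 321 CPM in Eed and Brd8 libraries, against 423 to 441 CPM in NT.

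The remaining genes were Rtn1, Uchl1 and Gng3. Rtn1 had 247, 263 and 234 CPM in Eed libraries and 243, 321 and 268 CPM in Brd8 libraries at day 11, against 426, 423 and 441 CPM in NT libraries. The fall was 1.73-fold in Eed (log2 change -0.79 ± 0.117 SE at adjusted p = 2.69e-06) and 1.55-fold in Brd8 (log2 change -0.63 ± 0.117 SE at adjusted p = 1.22e-04), without overlap. At day 9 Rtn1 had 189 and 135 CPM in Brd8 libraries, against 314, 277 and 321 CPM in NT libraries, lower in both Brd8 libraries (log2 change -0.91 ± 0.135 SE at adjusted p = 1.20e-05). At day 7 it did not pass in either knockout (-0.26 ± 0.121 SE in Eed and -0.30 ± 0.121 SE in Brd8). In the main fit the day 11 effect did not differ from the day 7 effect past the test, although the Eed difference was the lowest of the 37 (-0.53). Uchl1, a ubiquitin hydrolase abundant in neurons, had 91.7, 126 and 83.2 CPM in Brd8 libraries at day 11, against 152, 132 and 139.7 CPM in NT libraries, all lower in Brd8 (log2 change -0.49 ± 0.121 SE at adjusted p = 0.00331). In Eed at day 11 it was also lower (log2 change -0.59 ± 0.121 SE at adjusted p = 2.82e-04). Gng3, a G protein gamma subunit, was lower at day 7 in Eed (log2 change -0.66 ± 0.122 SE at adjusted p = 3.50e-04) and in Brd8 (log2 change -0.59 ± 0.120 SE at adjusted p = 0.00218) and did not pass at day 9 or day 11 in either.

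Whether a knockout's effect itself changed between the first and last day was tested as an interaction, the effect at day 11 minus that at day 7. A positive value means a smaller fall or a larger rise at day 11. In Eed 8 of the 37 differed, all positive, where 4.01% of all genes tested were positive and 2.32% negative. In Brd8 9 differed, all positive (2.98% positive and 1.57% negative over all genes), and in Ezh2 5, all positive (1.01% and 0.408%). In Nr6a1 0 differed in the main edgeR fit and 0 in DESeq2 (0.0395% and 0.0723% over all genes), with 0 positive and 14 negative at an unadjusted p under 0.05. For Nr6a1 edgeR called 9 with no low-count filter and 2 in a fit of only the groups compared, all negative. The Eed count was 13 without Eed replicate 3 at day 7. In Eed 1 gene was called negative with DESeq2 size factors, the DESeq2 Wald test or no low-count filter. The same held with a replicate block or only the groups compared. Without the low-count filter 1 gene was also negative in Ezh2 and 1 in Brd8. The Nr6a1 count was 1 without Nr6a1 replicate 3 at day 11. The Ezh2 count was 2 without Ezh2 replicate 2 or NT replicate 3 at day 7, and 3 without NT replicate 1 at day 7, without any 1 of the 3 Ezh2 libraries at day 11, or without NT replicate 2 or 3 at day 11.

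The 3 knockouts share the NT libraries, so their values are set side by side. For Nhlh1 the difference was 1.90 ± 0.202 SE in Eed (adjusted p = 6.01e-08), 1.40 ± 0.201 SE in Ezh2 (adjusted p = 8.60e-05) and 2.02 ± 0.202 SE in Brd8 (adjusted p = 5.63e-08). For Nhlh2 it was 1.99 ± 0.217 SE in Eed (adjusted p = 8.16e-08), 1.28 ± 0.215 SE in Ezh2 (adjusted p = 8.99e-04) and 1.76 ± 0.216 SE in Brd8 (adjusted p = 1.57e-06). Both kept the call under every alternative run in the 3 knockouts. For Cntn2 it was 1.50 ± 0.219 SE in Eed (adjusted p = 1.54e-05) and 1.20 ± 0.218 SE in Brd8 (adjusted p = 5.65e-04), kept likewise. For Myt1 in Eed it was 0.98 ± 0.139 SE (adjusted p = 9.79e-06), and for Elavl4 in Brd8 0.68 ± 0.125 SE (adjusted p = 7.01e-04). In Ezh2 Elavl3 differed by 0.51 ± 0.124 SE (adjusted p = 0.0241) and Elavl4 by 0.51 ± 0.125 SE (adjusted p = 0.0275), and both calls were lost without Ezh2 replicate 2 or NT replicate 3 at day 7, among others. In the main fit no interaction passed for Map1b, Map2, Mapt, Ncam1, Syn1 or Rtn1, which were lower in Eed at day 11. Their values lay between -0.53 (Rtn1) and 0.27 (Ncam1) in Eed.

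Promoter sequences are shown for the 3 genes that were higher at day 11 in Eed and Brd8 and fell with time in NT (Nhlh1, Nhlh2 and Cntn2), beside 1 gene lower at day 7 and not at day 11 (Elavl3) and 1 gene lower at all 3 days in Eed and Brd8 (Map2). Without Eed replicate 3 at day 9, 0 of the 37 passed in Eed at that day, Map2 included. The Brd8 call on Map2 at day 11 also depended on single libraries. Each is the 250 bases before the RefSeq transcription start on GRCm38.p6, read in the gene's direction, at chr1:172057597-172057846 (minus strand, Nhlh1), chr3:102009895-102010144 (plus, Nhlh2), chr1:132542941-132543190 (minus, Cntn2), chr9:22052024-22052273 (minus, Elavl3) and chr1:66175079-66175328 (plus, Map2). Capitals mark 4 motifs on either strand: CAGCTG and CAGATG, E-box forms bound by basic helix-loop-helix factors, and CAGCACC and GGACAG, both parts of the site of the repressor REST.
Nhlh1: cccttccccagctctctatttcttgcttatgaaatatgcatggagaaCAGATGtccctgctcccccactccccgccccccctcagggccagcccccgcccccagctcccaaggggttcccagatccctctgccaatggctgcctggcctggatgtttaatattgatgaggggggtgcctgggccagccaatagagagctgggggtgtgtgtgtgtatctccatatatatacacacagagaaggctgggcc
Nhlh2: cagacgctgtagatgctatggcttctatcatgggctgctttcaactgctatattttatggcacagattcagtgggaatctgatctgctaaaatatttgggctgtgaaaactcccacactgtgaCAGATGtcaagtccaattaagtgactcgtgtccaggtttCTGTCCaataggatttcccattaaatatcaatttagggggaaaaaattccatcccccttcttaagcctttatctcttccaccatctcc
Cntn2: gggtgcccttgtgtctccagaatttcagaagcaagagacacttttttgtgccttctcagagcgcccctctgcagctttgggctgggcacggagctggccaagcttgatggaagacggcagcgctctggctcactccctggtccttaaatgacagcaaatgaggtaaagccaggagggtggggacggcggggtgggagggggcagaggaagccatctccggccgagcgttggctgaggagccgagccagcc
Elavl3: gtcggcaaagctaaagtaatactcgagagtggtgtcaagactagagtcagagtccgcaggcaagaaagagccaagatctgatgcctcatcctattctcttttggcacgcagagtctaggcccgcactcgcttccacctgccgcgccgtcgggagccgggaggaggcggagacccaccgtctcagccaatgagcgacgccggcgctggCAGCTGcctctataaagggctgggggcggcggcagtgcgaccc
Map2: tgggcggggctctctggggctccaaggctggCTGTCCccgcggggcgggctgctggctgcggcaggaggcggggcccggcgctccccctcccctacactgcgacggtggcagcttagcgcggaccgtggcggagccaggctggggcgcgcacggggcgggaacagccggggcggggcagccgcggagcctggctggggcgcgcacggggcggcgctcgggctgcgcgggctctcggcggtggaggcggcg

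CAGATG stands in the windows of Nhlh1 and Nhlh2, CAGCTG in that of Elavl3, and GGACAG in those of Nhlh2 and Map2, while Cntn2 holds none of the 4. RefSeq windows were matched for 26 of the 37 genes, 46 windows in all, some genes having several that overlap. CAGATG was in 34.8% of these and CAGCTG in 21.7%, where 12.4% and 12.7% of all 20788 windows held them. CAGCACC was in 8.7%, where 5.75% of all windows held it, and GGACAG in 21.7%, where 19.3% did. These are descriptions of letters in a window and were not tested.

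Eed and Ezh2 encode subunits of the same complex, so their libraries were compared directly. Eed libraries were lower for 3 genes and higher for 0 at day 7 (0.138% and 0.0132% of all genes tested). At day 9 0 passed in the main edgeR fit and 0 in DESeq2, with a background of 0% in both directions. At an unadjusted p under 0.05 there were 24 lower and 0 higher at day 9. With no low-count filter edgeR called 13, all lower. At day 11 Eed was lower for 3 and higher for 0 (1.35% and 1.53% of all genes tested). At day 7 Dcx had 744, 687 and 891 CPM in Eed libraries and 1167, 999 and 1089.5 CPM in Ezh2 libraries (log2 change -0.49 ± 0.102 SE at adjusted p = 0.0361). Stmn2 had 137, 117 and 135 CPM in Eed libraries and 209, 193 and 185 CPM in Ezh2 libraries (log2 change -0.59 ± 0.124 SE at adjusted p = 0.0361). Myt1 had 116, 91.3 and 123 CPM in Eed libraries and 162, 142 and 150.4 CPM in Ezh2 libraries (log2 change -0.46 ± 0.0996 SE at adjusted p = 0.0361). None of the 3 genes overlapped between the groups. At day 11 Rtn1 had 247, 263 and 234 CPM in Eed libraries and 375, 352 and 360.2 CPM in Ezh2 libraries (log2 change -0.55 ± 0.117 SE at adjusted p = 0.00656). Mapt had 326, 319 and 250.2 CPM in Eed libraries and 458, 421 and 408 CPM in Ezh2 libraries (log2 change -0.52 ± 0.130 SE at adjusted p = 0.0210), and Stmn2 203, 245 and 195 CPM in Eed libraries and 268, 273 and 321 CPM in Ezh2 libraries (log2 change -0.42 ± 0.122 SE at adjusted p = 0.0480). Here too the groups were apart.

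These 6 calls rest on single libraries. At day 7 the count of 3 was 0 without Eed replicate 1, Eed replicate 2, Ezh2 replicate 1 or Ezh2 replicate 3, 10 without Eed replicate 3 and 6 without Ezh2 replicate 2. At day 9 the count of 0 was 12 without Eed replicate 1. At day 11 the count of 3 was 0 without Eed replicate 3 and 1 without Ezh2 replicate 1 or Ezh2 replicate 3. The median log2 difference of the 37 between Eed and Ezh2 libraries was -0.38 at day 7, -0.27 at day 9 and -0.30 at day 11.

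A second list of 50 pan-neuronal genes, none among the 37, was read the same way. In Eed libraries 33 of the 50 were lower and 0 higher at day 7 (5.76% and 2.9% of all genes tested). At day 9 in Eed 11 were lower and 1 higher (2.16% and 2.99%), and at day 11 17 and 5 (10.6% and 13.3%). In Brd8 libraries 22 were lower and 0 higher at day 7 (3.45% and 1.3% of all genes tested). At day 9 in Brd8 27 were lower and 1 higher (7.81% and 7.72%), and at day 11 9 and 5 (7.48% and 10.3%). The rises were not above the background in either knockout. In Ezh2 libraries 0 passed at day 7 and 0 at day 9. At day 11 in Ezh2 2 were lower and 4 higher, near the 2.7% and 5.22% of all genes tested. In Nr6a1 libraries 1 was higher, at day 7 (0.145% of all genes tested), which is not read as a result about the list. Elavl2, another neuronal Hu protein, averaged 146 ± 3.92 CPM in Eed libraries at day 7 and 245 ± 12.1 CPM in NT libraries (SD, n = 3 each), with a log2 change of -0.74 ± 0.0894 SE at adjusted p = 3.82e-06. Nova2, a neuronal splicing factor, averaged 421 ± 58.0 CPM in Brd8 libraries at day 7 and 676 ± 27.6 CPM in NT libraries (SD, n = 3 each), with a log2 change of -0.68 ± 0.101 SE at adjusted p = 1.09e-04. At day 11 Cplx2, a complexin of vesicle release, averaged 118 ± 4.63 CPM in Eed libraries and 179 ± 8.02 CPM in NT libraries (SD, n = 3 each; log2 change -0.60 ± 0.0798 SE at adjusted p = 4.74e-07). St18, a relative of Myt1, averaged 96.0 ± 2.66 CPM in Eed libraries, 95.7 ± 4.17 CPM in Ezh2 libraries, 98.1 ± 3.50 CPM in Brd8 libraries and 60.5 ± 5.53 CPM in NT libraries at day 11 (SD, n = 3 each; adjusted p = 4.16e-07, 3.80e-06 and 2.92e-07).

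**Figure D4:**
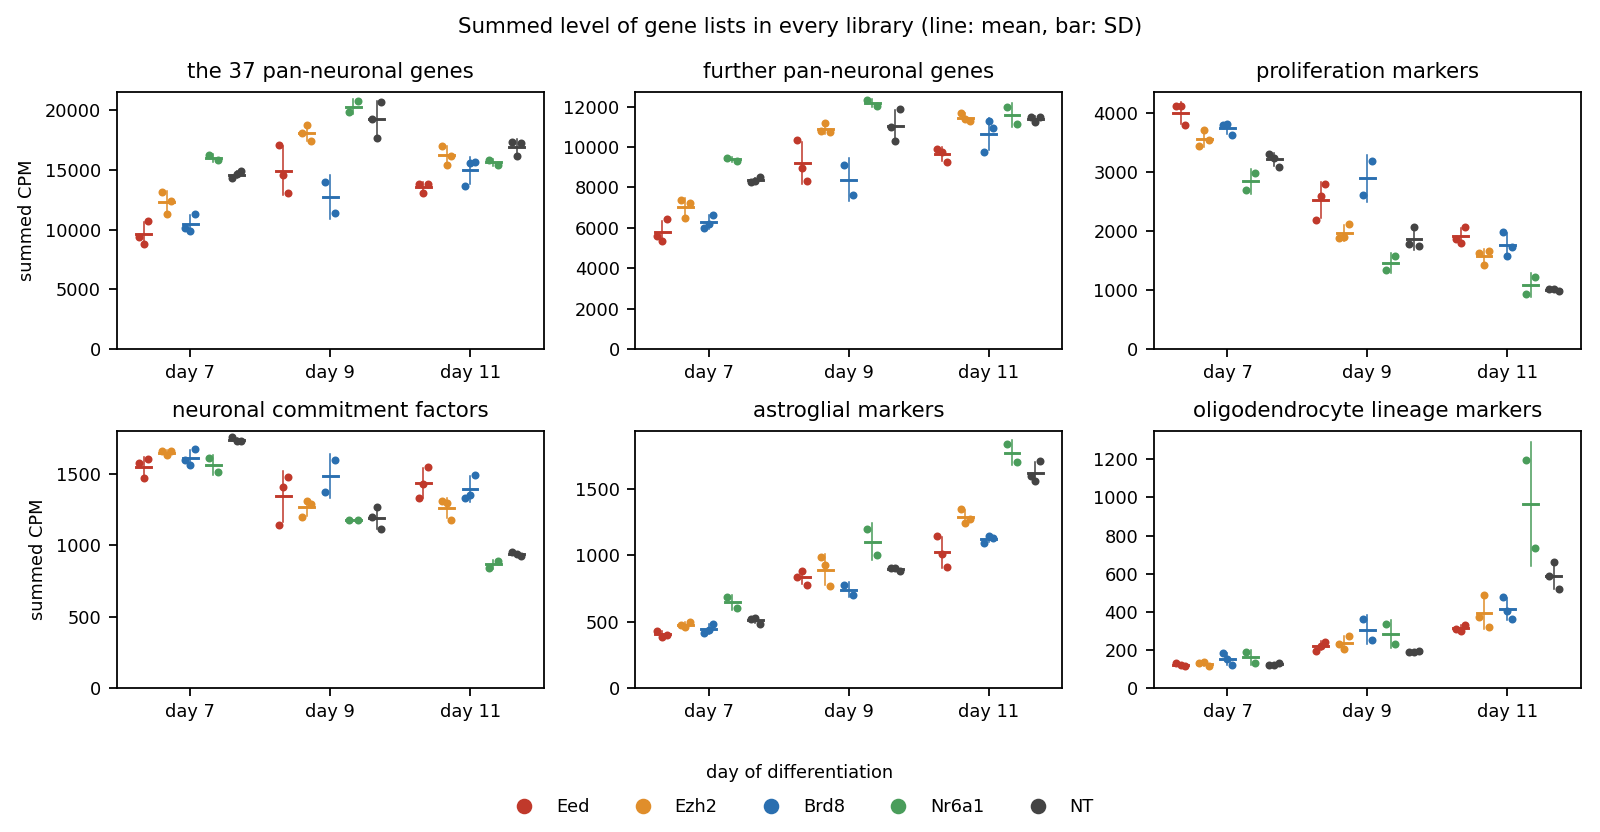
Summed CPM of 6 gene lists in every library at days 7, 9 and 11 (points for libraries, lines for the mean, bars for the SD, axes from 0): the 37 pan-neuronal genes, 50 further pan-neuronal genes, proliferation markers, neuronal commitment factors, astroglial markers and oligodendrocyte lineage markers. Proliferation markers at day 11 sum to 1797 to 2070.4 CPM in Eed libraries, against 974 to 1020.0 CPM in NT libraries.

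Other marker lists also changed. Of all genes tested, 2.9, 2.99 and 13.3% were higher in Eed at days 7, 9 and 11, and 1.3, 7.72 and 10.3% in Brd8. The shares that were lower were 5.76, 2.16 and 10.6% in Eed and 3.45, 7.81 and 7.48% in Brd8. In Ezh2 libraries 5.22% were higher and 2.7% lower at day 11. Of 14 proliferation genes, 5, 9 and 13 were higher in Eed libraries at days 7, 9 and 11, and 2, 14 and 13 in Brd8 libraries, with 0 lower. In Ezh2 libraries 11 were higher at day 11, and in NT all 14 were lower at day 11 than at day 7. Their summed level at day 7 was 3785 to 4111 CPM in Eed, 3627 to 3813 CPM in Brd8 and 3089.8 to 3302 CPM in NT libraries, and at day 9 it was 2613 to 3176 CPM in Brd8 and 1741 to 2065 CPM in NT libraries. Top2a, a topoisomerase of dividing cells, averaged 306 ± 32.9 CPM in Eed libraries at day 11 and 139.6 ± 8.57 CPM in NT libraries (SD, n = 3 each; log2 change 1.13 ± 0.116 SE at adjusted p = 2.61e-09). Progenitor genes did not move as one: of 16, 5 were higher and 5 lower in Eed libraries and 4 higher and 6 lower in Brd8 libraries at day 11. The part of dividing cells in the neuronal result was not tested.

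Of 17 neuronal commitment factors, which act before and during neuronal birth, 13 were higher in Eed, 10 in Ezh2 and 12 in Brd8 libraries at day 11, with 0 lower, and 11 were lower at day 11 than at day 7 in NT. Neurod4, a proneural helix-loop-helix factor, averaged 142 ± 26.6 CPM in Eed libraries, 94.4 ± 7.17 CPM in Ezh2 libraries and 35.8 ± 5.89 CPM in NT libraries at day 11 (SD, n = 3 each; log2 change 1.98 ± 0.156 SE at adjusted p = 3.03e-11 in Eed). At day 7 2 of the 17 were lower in Eed, and 1 was higher and 2 lower in Brd8. One gene, Insm1, is in both this list and the second pan-neuronal list. Of 10 motor neuron markers 6 were lower in Eed libraries at day 7 (summed level 246 to 358 CPM, against 465 to 532 CPM in NT libraries) and 1 in Brd8 (361 to 399 CPM). At day 9 0 passed in Eed and 2 were lower in Brd8. At day 11 0 were lower, and 2 were higher in Eed (194 to 253 CPM), 2 in Ezh2 (219 to 251 CPM) and 5 in Brd8 (236 to 327 CPM). NT libraries summed to 175 to 209.6 CPM, which the Eed range overlapped. Over all genes tested 13.3, 5.22 and 10.3% were higher, and the Eed count was near that share.

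Glial and non-neural markers also moved, and the counts are for day 11 unless another day is given. At day 11 13.3, 5.22 and 10.3% of all genes tested were higher in Eed, Ezh2 and Brd8, and 10.6, 2.7 and 7.48% lower. A count of 1 or 2 in a list is not read as a result about it. Of 12 astroglial genes 11 were tested, of which 8 were lower and 1 higher in Eed, 4 and 1 in Ezh2 and 6 and 1 in Brd8, with sums of 909.7 to 1142, 1241 to 1351 and 1093 to 1142 CPM, against 1559 to 1712 CPM in NT libraries. Gfap and S100b had no count in Eed libraries at that day. Of 11 oligodendrocyte lineage genes 8, 3 and 7 were lower in Eed, Ezh2 and Brd8, with sums of 299 to 330, 321 to 486 and 359.97 to 475 CPM, against 517 to 659 CPM in NT libraries. Of 9 muscle genes 8, 6 and 8 were higher in Eed, Ezh2 and Brd8, with sums of 159 to 230, 90.2 to 129 and 280.5 to 398 CPM, against 1.94 to 26.1 CPM in NT libraries, where Tnni1 had no count. At day 9, 7 of the muscle genes were already higher in Brd8 (105 to 264 CPM) and 2 in Eed (31.3 to 157 CPM), against 11 to 27.4 CPM in NT libraries. Of 10 epithelial genes 8 were higher in Eed, 2 in Ezh2 and 0 in Brd8, with sums in Eed libraries of 210.4 to 421 CPM, against 16.2 to 30.7 CPM in NT libraries, where Krt4 and Upk1b had no count. Of 10 neural crest and peripheral neuron genes 4 were higher in Eed at day 7 and 4 in Brd8, with sums of 114 to 160.4 and 89.3 to 222 CPM, against 46.5 to 52.2 CPM in NT libraries. At day 9, 2 were higher in Eed, and 4 were higher and 1 lower in Brd8. At day 11, 5, 3 and 4 were higher in Eed, Ezh2 and Brd8, with sums of 258 to 307, 146 to 278 and 294 to 394 CPM, against 117 to 144 CPM in NT libraries. One gene, Sox10, is in both the oligodendrocyte and the neural crest list. The part of these cells in the neuronal values was not tested.

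For 14 of the 37 genes exons overlap those of another gene in the annotation. The library kit keeps strand, but the strand setting used in counting is not given in the sources used here, so reads of opposite-strand partners may not be separated. Beside Nefl and Nefm, the genes with opposite-strand partners are Ncam1 (417 bases shared with Gm11149), Myt1l (633 bases with Gm20208), Syt4 (566 bases with Gm26658), Uchl1 (295 bases with Uchl1os), Ina (456 bases with Nt5c2), Map2 (124 bases with Gm10558), Syp (875 bases with Gm14703), Gng3 (398 bases with Bscl2), Celf3 (74 bases with Riiad1) and Syn1 (9 bases with Araf). On their own strand Elavl3 shares 256 bases with Gm49318 and L1cam 100 bases with Arhgap4. Nhlh1, Nhlh2, Cntn2, Myt1, Rtn1, Map1b, Dcx, Gap43 and Mapt overlap no other annotated exon.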

How the data were processed

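RNA sequencing of 41 samples gave 15 groups of genotype and day, taken from the sample titles. Values are the estimated counts per gene symbol in the table of raw counts that the authors deposited. Per the labels' protocols, directional libraries were made from total RNA after ribosomal RNA depletion, although the labels also call the library source genomic. The genome build mm10 and the tool DESeq2 are named in the submitters' processing notes. The aligner, counting tool, strand setting and annotation were not given in the sources used here. Fractions, in 2.95% of all values and in 89 values of the 37 genes, were rounded to whole counts. No 2 libraries were identical.

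The counts were tested in R 4.3.3 with edgeR 4.0.16, using filterByExpr by group, TMM scaling and 1 quasi-likelihood fit with a mean per group over all 41 libraries, which share 1 estimate of the spread. Comparisons were each knockout with NT of its day, Eed with Ezh2 on each day, NT at day 11 with day 7, and the change in each knockout's effect between days 7 and 11. Two-sided p-values were adjusted with the Benjamini-Hochberg method over the 15204 genes tested (threshold 0.05), and each SE is the size of the log2 change over the root of its F statistic. Where leaving out a library left a group with a lone one, it was taken to vary as the rest do.

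The 37 genes, their roles, the 12 further lists and the alternatives were chosen with earlier results of these data known. The rule for named genes gives values in every library for up to 4 genes per knockout and day with the smallest adjusted p, the 4 highest and 4 lowest of the NT time course, and up to 4 per difference between days and per comparison of Eed with Ezh2. Genes of the further lists are named for the smallest adjusted p, up to 2 per list and comparison. Members given beyond this were chosen for their role, after their values were seen.

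The alternatives tried were size factors from DESeq2 within edgeR, the Wald test of DESeq2 1.42.0, omission of the low-count filter, a replicate block, a fit of only the groups compared, omission of 2 libraries of low agreement, and omission of each library in turn. The scripts were tested on simulated data. Exon lengths, overlaps and positions came from GENCODE M21 (GRCm38, the assembly of mm10; 37 of 37 symbols matched), and promoters from RefSeq on GRCm38.p6 (26 of 37 matched).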

Additional observations from a re-analysis of the deposited data

Results flagged for a closer look

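In 22 cases the effect of a knockout on a member at day 11 differed from its effect at day 7 by the interaction test in edgeR (adjusted p under 0.05). The values below are log2 differences, the effect at day 11 minus that at day 7, and all are positive.

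In Eed the difference was 1.99 for Nhlh2, 1.90 for Nhlh1, 1.503 for Cntn2, 0.98 for Myt1, 0.74 for Elavl4, 0.63 for Stmn2, 0.56 for Elavl3 and 0.54 for Celf3. In Ezh2 it was 1.40 for Nhlh1, 1.28 for Nhlh2, 0.52 for Myt1, 0.51 for Elavl3 and 0.51 for Elavl4. In Brd8 it was 2.02 for Nhlh1, 1.76 for Nhlh2, 1.202 for Cntn2, 0.68 for Elavl4, 0.67 for Syt1, 0.65 for Myt1, 0.61 for Gng3, 0.49 for Tubb3 and 0.44 for Elavl3.

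Of 18 alternatives each, the call was lost under 5 for Celf3 and 3 for Stmn2 in Eed, under 6 for Elavl3, 5 for Elavl4 and 12 for Myt1 in Ezh2, and under 9 for Elavl3, 7 for Gng3 and 6 for Syt1 in Brd8. The other 14 kept it under each.

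The cases were not all of one kind. For Nhlh1 and Nhlh2 the day 7 effects did not pass in any of these knockouts and the day 11 effects were rises. Even so, Nhlh2 at day 7 had 104, 91.8 and 116 CPM in Eed libraries and 108, 99.4 and 125 CPM in Brd8 libraries. All were below the 146, 129 and 145 CPM of NT libraries. Nhlh1 at day 7 was below every NT library in Brd8 and in Ezh2, and overlapped NT in Eed. For Cntn2 a fall at day 7 was followed by a rise at day 11 in Eed and in Brd8. For Elavl3 and Elavl4 in Eed and Brd8 a fall at day 7 was followed by a value at day 11 that did not pass. Rn45s, the ribosomal RNA precursor, took 6.22 to 8.96% of counts in Eed libraries at day 11, against 5.18 to 6.79% in NT libraries, and its part in these differences was not tested.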

How the results depend on the processing

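Of 740 pairs of member and comparison 172 were called, and 95 of these kept the call under each alternative run. Over the called pairs 2167 alternatives were run, of which 1920 kept the call, 247 lost it and 0 reversed the direction. Over the 568 uncalled pairs, 319 of 7375 alternatives gained a call. With size factors from DESeq2, each count of called members stayed within 1.5 times its value.

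Counts of called members moved as follows, and the cause was not tested. Without the low-count filter they were 19 (Eed at day 9), 7 (Ezh2 at day 7), 7 (Ezh2 at day 11), 7, 3 and 2 (Nr6a1 at days 7, 9 and 11), 15, 11, 17 and 9 (differences between days in Eed, Ezh2, Brd8 and Nr6a1), and 23, 13 and 19 (Eed against Ezh2 at days 7, 9 and 11). With only the groups compared they were 6 (Eed at day 9), 10 and 6 (Ezh2 at days 7 and 11), 5 (Nr6a1 at day 7), 9 and 2 (differences in Ezh2 and Nr6a1), and 9 and 7 (Eed against Ezh2 at days 7 and 11). The DESeq2 Wald test gave 1 (Ezh2 at day 7), 2 (Nr6a1 at day 7), and 8 and 6 (Eed against Ezh2 at days 7 and 11). Without the 2 libraries of low agreement they were 7 (Brd8 at day 11), 3 (difference in Ezh2), and 5 and 0 (Eed against Ezh2 at days 7 and 11).

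Same-numbered libraries did not deviate together (correlations of -0.0278 to 0.0798 over 32 pairs, 0 over 0.1), so no pairing by number was detected. With 2 or 3 libraries per group this cannot exclude a pairing. With a replicate block the counts were 2 for Nr6a1 at day 7 and 6 for Eed against Ezh2 at day 7, and no other count moved by over 1.5 times.

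With 1 library left out, the counts ranged from 23 to 29, 0 to 20 and 14 to 17 in Eed at days 7, 9 and 11, from 0 to 1, 0 to 0 and 2 to 3 in Ezh2, from 11 to 21, 7 to 29 and 7 to 12 in Brd8, and from 0 to 2, 0 to 1 and 0 to 2 in Nr6a1. They were 25 to 27 for the NT time course, 6 to 13, 2 to 6, 6 to 12 and 0 to 1 for the differences in Eed, Ezh2, Brd8 and Nr6a1, and 0 to 10, 0 to 12 and 0 to 4 for Eed against Ezh2 at days 7, 9 and 11. The SE on the log2 scale was above 0.25 in each comparison for Thy1, Nefm, Scg2, Nefh and Chga, which limits what could be called for them, and its cause was not tested.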

Other observations

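Of 15 markers of interneurons and of transmitter type, 9 were higher and 2 lower in Eed libraries at day 11, 9 and 1 in Ezh2, and 9 and 1 in Brd8, and in NT 11 were higher and 0 lower at day 11 than at day 7. Their summed level at day 11 was 468 to 529 CPM in Eed, 495 to 544 CPM in Ezh2 and 468 to 528 CPM in Brd8 libraries, against 286 to 339 CPM in NT libraries. At day 9 it was 302 to 355 CPM in Brd8 and 202 to 218 CPM in NT libraries, and 8 of the 15 were higher and 2 lower in Brd8. Among the 8 was Pax2, a factor of inhibitory spinal interneurons (log2 change 1.83 ± 0.227 SE, adjusted p = 1.05e-06 in edgeR), and among the 2 was Sim1, a factor of V3 interneurons (-2.55 ± 0.319 SE, adjusted p = 1.21e-06). In Nr6a1 1 was higher at day 7, 0 passed at day 9 and 1 was lower at day 11. Of 8 pluripotency genes 3 were lower in Brd8 at day 7 and 3 at day 11, 1 was lower in Eed at day 7 and 2 were higher in Eed at day 11, with sums of at most 97.4 CPM in any library. Over all genes tested, 13.3, 5.22 and 10.3% were higher at day 11 in Eed, Ezh2 and Brd8. The shares that were lower were 10.6, 2.7 and 7.48%. In Brd8 3.45% were lower at day 7, and 7.72% were higher and 7.81% lower at day 9. In Eed 5.76% were lower at day 7, and the pluripotency counts in Eed were near these shares.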
